A study of Oryza sativa with 23 samples.

Results

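The genes described here had more mRNA in roots and less mRNA in leaves of rice plants (Oryza sativa) under excess iron than under control conditions, in both varieties studied. They were selected on these measured values: gene TPM (a level scaled for transcript length and sequencing depth) was summed over the transcripts of a gene, and 0.5 was added to each group mean. A gene was kept where the ratio of excess iron to control was at least 2 in root and at most 0.5 in leaf in both varieties, and where its highest group mean reached at least 5 TPM. The rule found 35 genes of 35679 in all, of which 21086 met the minimum level. The ratios between solutions are therefore a description of the choice and carry no test.

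RNA of whole roots and of L2 leaves was sequenced when plants were 11 days old. The variety Hacha came from a cross of CRM 53 and IR 64, and the variety Lachit from CRM 13-3241 and Kalinga 2. From day 9 on, for 2 days, plants stood either in control nutrient solution, with 50 µM Fe as iron sodium EDTA at pH 6.2, or in solution with 15 mM Fe as iron sulfate at pH 5.2, hereafter excess iron. The excess-iron solution was also more acid and richer in sulfate, and the effects of these 3 changes cannot be told apart. The 23 libraries form 8 groups of variety, organ and solution, of 3 libraries each, with the exception of Hacha root under excess iron, for which 2 were used. Triplicates are described for the series, and a further library for that group was not analysed here. Whether replicates were separate plants is not stated in the labels, so each p-value reflects only how these samples varied, and that variation may be technical.

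As background, iron is needed for respiration and chlorophyll synthesis, but ferrous iron in excess feeds reactions that form damaging oxygen species. In flooded, acid soils rice roots meet large amounts of ferrous iron. Plants are known to limit its entry at the root surface, to store it in vacuoles and in ferritin, and to restrict its passage to the shoot. Leaves that take up too much of it show the spots known as bronzing. The genes here are printed by identifier, because the gene table at hand did not pair these identifiers with names; no role is given to any of them, and roots and leaves could not be checked by marker genes.

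Libraries held 16659578 to 33386824 estimated counts. Within groups, the mean correlation of a library with its replicates was 0.986 to 0.991 in root and 0.939 to 0.994 in leaf, and the lowest value belonged to replicate 3 of excess-iron leaf of Lachit. In these bulk samples, fewer cells of a type and less RNA per cell cannot be told apart. Strand was not marked by the library kit, so antisense transcription is not separated from that of the gene itself, and genes with near-identical copies share reads.

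By the same thresholds on TPM, 113 genes were lower in roots and higher in leaves in both varieties, 996 were higher in both organs and 344 were lower in both. The 35 genes made up 1.84% of the 1902 genes with a root ratio of at least 2 in both varieties, and 1.87% of the 1871 genes with a leaf ratio of at most 0.5 in both. On CPM, the counts scaled to library size with TMM factors (which level the typical gene between libraries), the pattern described here held for 71 genes and its opposite for 69, so their relative number depends on the scaling. In TPM and taken alone, Hacha gave 233 genes with this pattern and Lachit gave 100.

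In Hacha the typical leaf ratio was further from 1 than the typical root ratio, while in Lachit they were alike in TPM. The median log2 ratio of the 35 genes was 1.48 in Hacha root, with a range of 1.07 to 5.60, and 1.45 in Lachit root, with a range of 1.07 to 5.42. In leaves the median log2 ratio was -2.62 in Hacha, from -5.77 to -1.14, and -1.45 in Lachit, from -2.79 to -1.02. Over the 21086 genes that met the minimum level, the corresponding medians were -0.28, -0.08, 0.00 and 0.28. On TMM-scaled CPM, the members' medians were 1.76, 1.54, -2.61 and -1.85, and all 35 genes kept their direction in the 4 ratios. The leaf ratio was the lower one in Hacha for 29 of the 35 genes (82.9%), as it was for 91.5% of the 1871 genes that were low in leaves of both varieties. The root ratio was the higher one in Hacha for 17 of 35 (48.6%), against 56.9% of the 1902 genes that were high in roots.

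Most genes showed the pattern in every library. Every excess-iron library lay above every control library for 35 genes in Hacha root, where 28.4% of the 21086 genes did so, and for 33 genes in Lachit root, against 29.1%. Every excess-iron library lay below every control library for 34 genes in Hacha leaf, against 35.8% of all genes, and for 35 genes in Lachit leaf, against 17.2%. Nothing is read from these counts, since the same values chose the genes. Libraries overlapped for OS10G0466800 in Hacha leaf and for OS01G0910500 and OS09G0458800 in Lachit root, which leaves 32 genes with no overlap in any of the 4 comparisons.

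**Figure D1:**
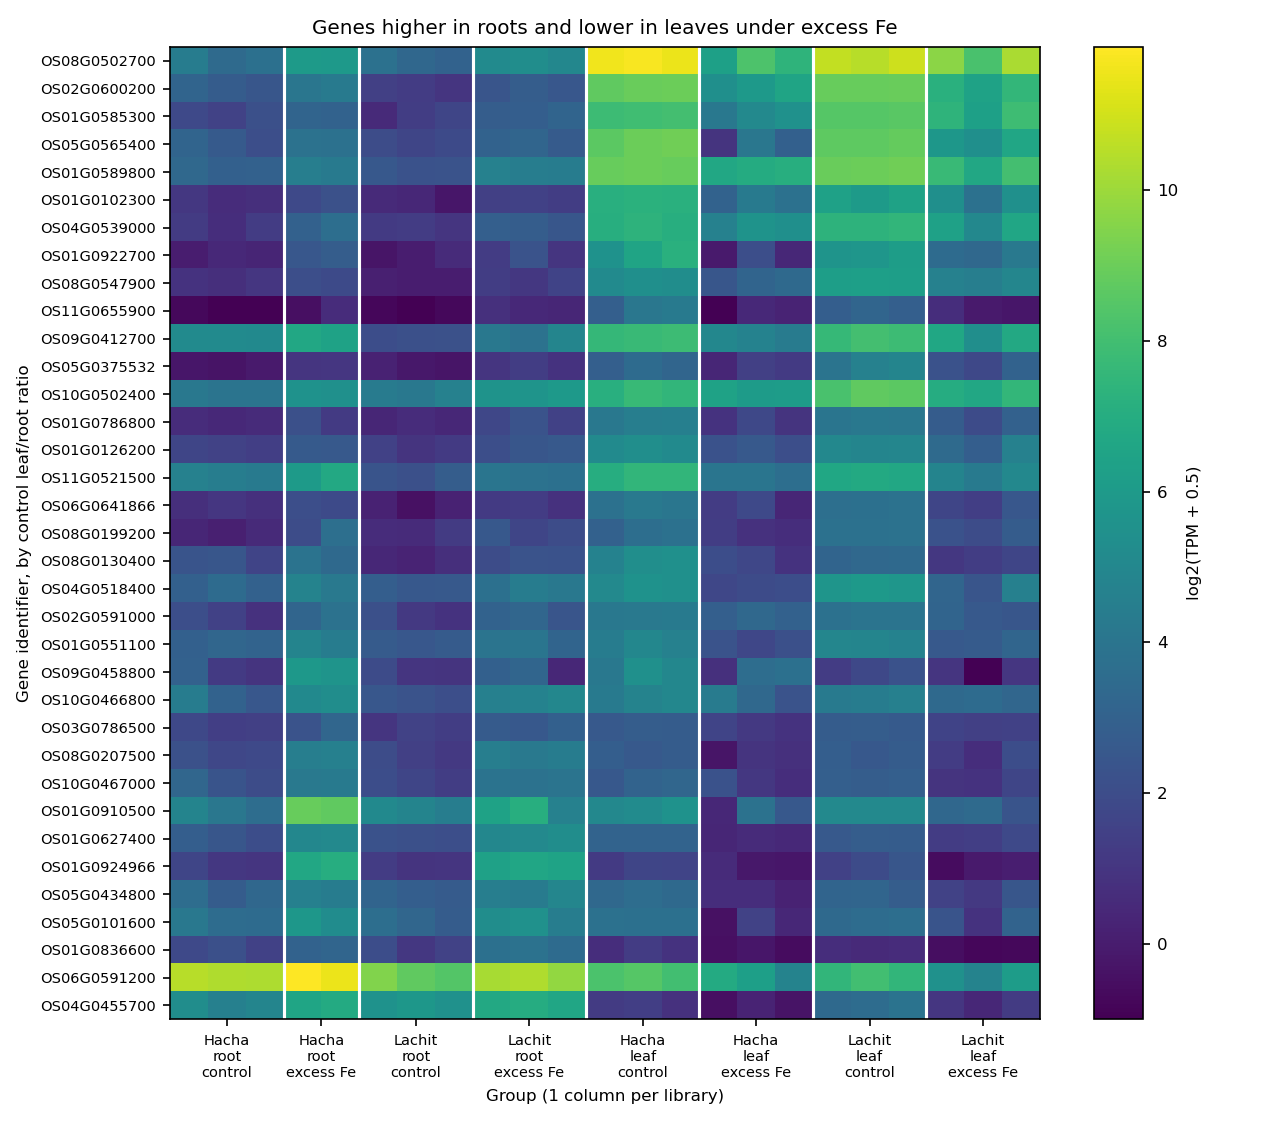
Level of the 35 genes (rows, ordered by their control leaf/root ratio) in the 23 libraries (columns, grouped by variety, organ and solution), as log2(TPM + 0.5) on a colour scale from dark (low) to yellow (high). Most upper rows are brightest in control leaf, while the lower rows include genes that are brightest in excess-iron root.

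The genes fell into 3 kinds by where they were expressed in control plants. Control leaf was at least 2 times control root in both varieties for 24 genes, control leaf was at most 0.5 of control root in both for 2 genes, and the other 9 lay between or differed between varieties. The highest of the 8 group means was a control leaf for 22 genes and an excess-iron root for 13. That highest mean ran from 6.72 to 3368 TPM, with a median of 54.5 TPM. Levels in roots were often low: the excess-iron root mean stayed under 5 TPM in both varieties for 6 genes and under 10 TPM for 12.

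Among the 24 genes with more mRNA in control leaf, OS08G0502700 had the highest level. In Hacha leaf it stood at 3148, 3522 and 2977 TPM in the control libraries and at 80.2, 314 and 165 TPM under excess iron. In Lachit leaf it stood at 1657, 1441 and 1952 TPM in control and at 801, 293 and 1217 TPM under excess iron. All excess-iron leaf libraries were below the control ones of their variety, and the excess-iron libraries of Lachit were more scattered than its control libraries. In roots the same gene was at 21.1, 10.6 and 12.9 TPM in Hacha control, 65.9 and 63.0 TPM in Hacha excess iron, 13.5, 9.27 and 7.76 TPM in Lachit control and 36.0, 40.0 and 30.4 TPM in Lachit excess iron. The root libraries were separate in both varieties, and every root library lay below every leaf library, by little only in Hacha under excess iron, where the lowest leaf library was at 80.2 TPM.

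OS05G0565400 had the lowest leaf ratio in Hacha, at 0.0183, against 0.155 in Lachit. Its leaf levels were 403, 521 and 550 TPM in Hacha control and 1.41, 16.8 and 7.32 TPM in Hacha excess iron. In Lachit leaf they were 410, 412 and 462 TPM in control and 55.8, 42.1 and 99.3 TPM under excess iron. The control leaf levels of the varieties overlapped, whereas every Lachit leaf library under excess iron was above every Hacha one. In roots it was at 8.43, 5.69 and 3.82 TPM in Hacha control, 14.1 and 13.4 TPM in Hacha excess iron, 3.46, 2.69 and 3.17 TPM in Lachit control and 7.96, 8.72 and 5.96 TPM in Lachit excess iron.

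OS01G0589800 and OS02G0600200 were the other strongly leaf-expressed genes among the 5 with the highest levels. OS01G0589800 stood at 486, 511 and 480 TPM in control leaf of Hacha and at 105, 123 and 137 TPM under excess iron, and in Lachit at 491, 512 and 549 TPM in control leaf and at 215, 108 and 264 TPM under excess iron. Its roots held 9.74, 7.19 and 7.64 TPM in Hacha control, 22.2 and 19.3 TPM in Hacha excess iron, 5.41, 4.22 and 4.38 TPM in Lachit control and 25.1, 21.4 and 20.9 TPM in Lachit excess iron. The root ratio was higher in Lachit, at 4.45, than in Hacha, at 2.45, and the excess-iron root libraries of the varieties overlapped.

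OS02G0600200 had 432, 494 and 515 TPM in Hacha control leaf and 43.1, 61.0 and 93.3 TPM in Hacha excess-iron leaf. In Lachit leaf it had 473, 478 and 501 TPM in control and 143, 86.9 and 189 TPM under excess iron. Its roots held 8.36, 6.21 and 4.89 TPM in Hacha control, 16.5 and 19.1 TPM in Hacha excess iron, 2.26, 1.97 and 1.51 TPM in Lachit control and 4.71, 6.43 and 5.20 TPM in Lachit excess iron. The root libraries of Lachit under excess iron thus overlapped with those of Hacha in control solution, and the ratios of 2.46 and 2.62 were close.

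Among the leaf-expressed genes with the most marked opposition (the 5 genes with the largest smallest ratio), OS01G0922700 was nearly silent in control roots. It had 47.4, 91.6 and 145 TPM in Hacha control leaf against 0.439, 3.71 and 0.875 TPM under excess iron, and 50.3, 55.0 and 72.8 TPM in Lachit control leaf against 10.7, 9.63 and 18.2 TPM under excess iron. In roots it had 0.522, 0.921 and 0.762 TPM in Hacha control, 5.20 and 6.42 TPM in Hacha excess iron, 0.342, 0.517 and 0.978 TPM in Lachit control and 1.92, 4.42 and 1.46 TPM in Lachit excess iron. In Hacha the organ with more of this mRNA was the leaf in control solution and the root under excess iron, and in Lachit it was the leaf in both solutions. On the TMM scale OS01G0922700 no longer met the rule, although its 4 ratios kept their direction.

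OS08G0130400 had 25.7, 40.8 and 43.9 TPM in Hacha control leaf and 3.61, 2.86 and 1.37 TPM under excess iron, and 8.47, 9.68 and 9.94 TPM in Lachit control leaf and 1.64, 2.06 and 2.75 TPM under excess iron. In roots it had 4.60, 4.97 and 2.58 TPM in Hacha control, 14.5 and 10.1 TPM in Hacha excess iron, 0.857, 0.707 and 1.16 TPM in Lachit control and 3.48, 4.34 and 4.21 TPM in Lachit excess iron. Lachit was below Hacha in both organs in control solution, yet the ratios between solutions were alike in root, at 2.81 in Hacha and 3.21 in Lachit.

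OS09G0412700 had similar control leaf levels in the varieties but different root levels. Control leaf held 194, 211 and 226 TPM in Hacha and 198, 267 and 226 TPM in Lachit, and excess-iron leaf held 30.6, 25.8 and 20.3 TPM in Hacha and 103, 40.7 and 111 TPM in Lachit. Roots held 35.4, 35.8 and 34.5 TPM in Hacha control, 107 and 85.0 TPM in Hacha excess iron, 3.58, 3.94 and 4.11 TPM in Lachit control and 17.5, 14.2 and 29.0 TPM in Lachit excess iron. Every excess-iron root library of Lachit was below every control root library of Hacha.

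The 9 genes of the middle kind included those with the largest root ratios. OS01G0924966, named after its values were seen because its root ratios were the largest, had 2.69, 1.64 and 1.51 TPM in Hacha control root and 106 and 131 TPM under excess iron, and 1.98, 1.39 and 1.51 TPM in Lachit control root and 83.9, 98.3 and 89.6 TPM under excess iron. The root ratio was 48.5 in Hacha and 42.9 in Lachit. In leaves it was low throughout, at 1.75, 2.72 and 2.60 TPM in Hacha control, 1.00, 0.395 and 0.361 TPM in Hacha excess iron, 2.27, 3.38 and 5.00 TPM in Lachit control and 0.183, 0.448 and 0.548 TPM in Lachit excess iron. Its leaf difference therefore rests on levels of a few TPM and below.

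OS01G0910500 differed most between the varieties in its root ratio, which was 23.7 in Hacha and 2.86 in Lachit. Roots held 27.8, 16.9 and 11.7 TPM in Hacha control, 474 and 437 TPM in Hacha excess iron, 34.7, 27.7 and 21.6 TPM in Lachit control and 85.0, 134 and 24.6 TPM in Lachit excess iron. Replicate 3 of excess-iron root of Lachit lay within the Lachit control libraries, while both Hacha libraries were well above theirs. In leaves the solutions did not overlap, with 31.7, 36.8 and 47.0 TPM in Hacha control, 0.857, 13.9 and 5.35 TPM in Hacha excess iron, 33.0, 32.7 and 32.8 TPM in Lachit control and 9.48, 10.5 and 4.55 TPM in Lachit excess iron.

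OS10G0467000 and OS10G0466800 lie beside each other in the order of identifiers, with 0 genes of the files between them, and were the 1 such pair among the 35. OS10G0467000 had 9.12, 4.65 and 3.44 TPM in Hacha control root, 17.8 and 19.6 TPM in Hacha excess-iron root, 3.57, 2.73 and 2.02 TPM in Lachit control root and 14.4, 14.3 and 15.0 TPM in Lachit excess-iron root. In leaves it had 5.46, 8.22 and 9.06 TPM in Hacha control, 4.18, 1.60 and 1.11 TPM in Hacha excess iron, 6.96, 6.40 and 6.96 TPM in Lachit control and 1.44, 1.37 and 2.69 TPM in Lachit excess iron. No libraries of the solutions overlapped for this gene in either organ.

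OS10G0466800 had 21.0, 7.68 and 5.12 TPM in Hacha control root, 33.9 and 39.6 TPM in Hacha excess-iron root, 5.07, 4.41 and 3.81 TPM in Lachit control root and 23.6, 25.5 and 30.7 TPM in Lachit excess-iron root. In leaves it had 19.7, 26.6 and 31.4 TPM in Hacha control, 19.9, 9.71 and 4.38 TPM in Hacha excess iron, 18.6, 20.5 and 24.1 TPM in Lachit control and 10.3, 11.0 and 9.09 TPM in Lachit excess iron. In both genes replicate 1 was the highest library of Hacha control root and of Hacha excess-iron leaf. The gene before them in the order, OS10G0466700, had a log2 ratio of -1.31 in Hacha root, was also below control in Lachit root, and had log2 ratios of -0.05 and 0.00 in leaves, so it did not share the pattern.

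The 2 genes with more mRNA in control root kept that preference under excess iron. The rule fixed this, since it asks for higher root levels and lower leaf levels under excess iron. OS06G0591200 had the highest level of all 35, with 1487, 1329 and 1275 TPM in Hacha control root, 3823 and 2914 TPM in Hacha excess-iron root, 702, 431 and 346 TPM in Lachit control root and 1180, 1322 and 891 TPM in Lachit excess-iron root. In leaves it had 304, 361 and 251 TPM in Hacha control, 118, 76.8 and 26.7 TPM in Hacha excess iron, 180, 256 and 179 TPM in Lachit control and 45.4, 26.6 and 69.1 TPM in Lachit excess iron. The excess-iron root libraries of Lachit overlapped with the control root libraries of Hacha.

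OS04G0455700 had 39.5, 24.4 and 29.1 TPM in Hacha control root, 95.0 and 119 TPM in Hacha excess-iron root, 47.6, 55.7 and 45.7 TPM in Lachit control root and 110, 126 and 100 TPM in Lachit excess-iron root. In leaves it had 1.86, 2.10 and 1.30 TPM in Hacha control, 0.225, 0.731 and 0.297 TPM in Hacha excess iron, 10.1, 11.3 and 14.7 TPM in Lachit control and 1.58, 0.831 and 1.87 TPM in Lachit excess iron. Control leaf of Lachit stood well above control leaf of Hacha, and excess-iron leaf of Lachit overlapped with control leaf of Hacha.

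**Figure D2:**
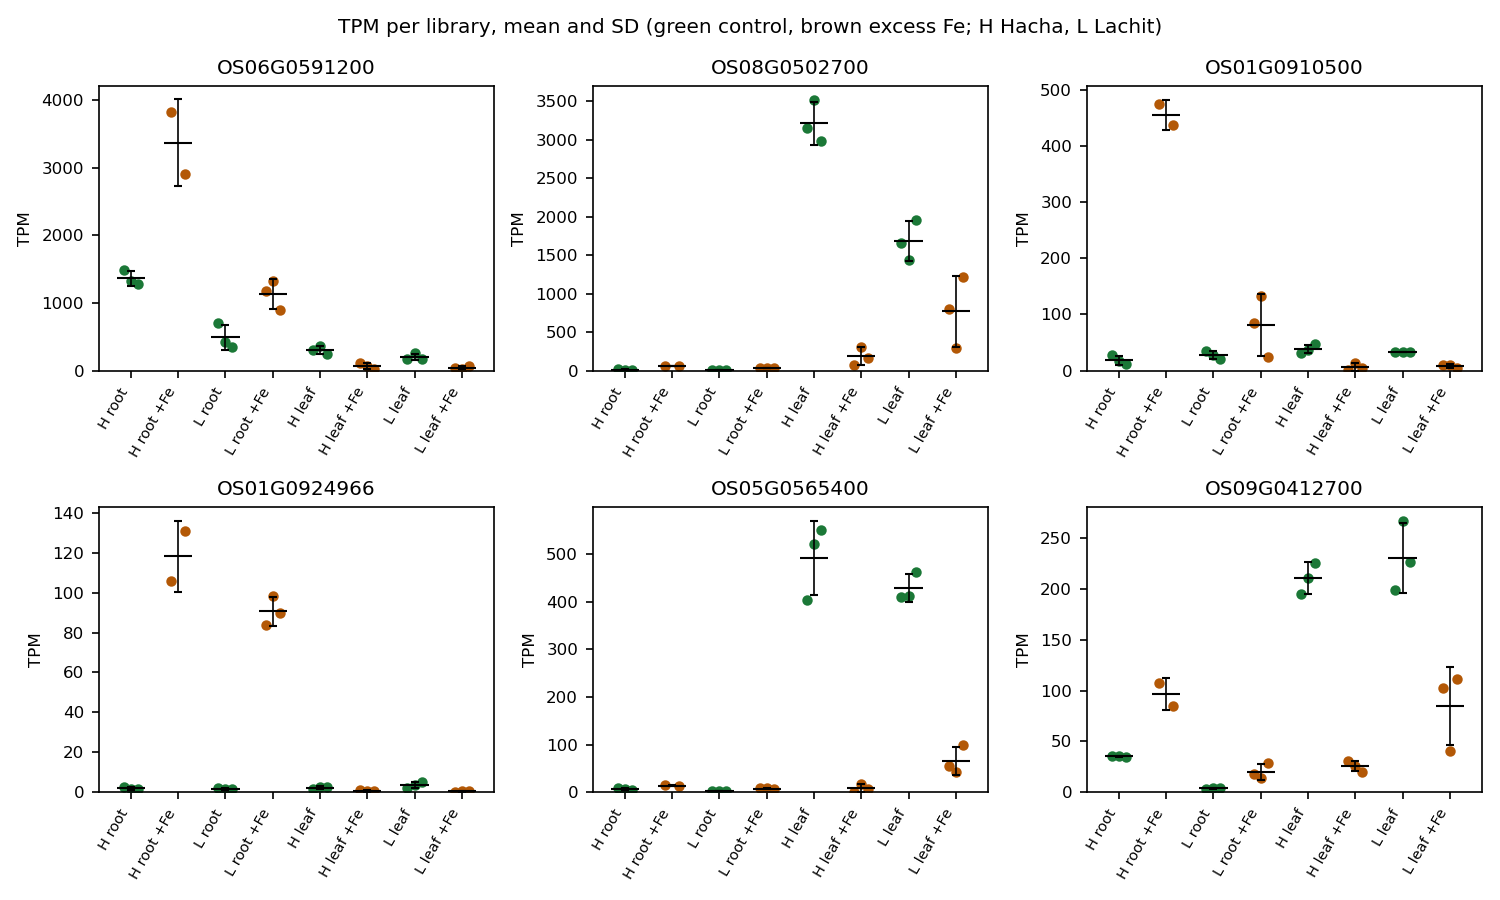
TPM of 6 genes in each library, by variety (H Hacha, L Lachit), organ and solution (green control, brown excess iron), with bars for the mean and SD of each group of 3 libraries (2 in excess-iron root of Hacha); each panel has its own linear axis. OS06G0591200, OS01G0910500 and OS01G0924966 are highest in excess-iron root of Hacha, and OS08G0502700, OS05G0565400 and OS09G0412700 are highest in control leaf.

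The leaf/root ratio of each gene was lower under excess iron by construction, since the rule requires it to be lower by at least 4 times. The median leaf/root ratio of the 35 genes was 7.73 in control and 0.318 under excess iron in Hacha, and 8.82 and 0.883 in Lachit. The median of this decrease was 19.0 times in Hacha and 9.29 times in Lachit. Over all 21086 genes, the median ratio was 0.591 in control and 0.842 under excess iron in Hacha, and 0.634 and 0.905 in Lachit. Leaf exceeded root in control for 31 genes in Hacha and 32 in Lachit, and under excess iron for 9 and 17. From leaf-higher to root-higher, 22 genes switched in Hacha, 15 in Lachit and 14 in both.

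Where each kind of gene ended followed partly from where it started, because the rule forces a decrease of at least 4 times. Of the 24 leaf-expressed genes, 7 still had at least 2 times more mRNA in leaf than in root of both varieties under excess iron, 15 came to lie between, and 2, OS03G0786500 and OS10G0466800, had at most 0.5 of the root level in leaf. All 9 genes of the middle kind had at most 0.5 of the root level in leaf of both varieties under excess iron. This was largely fixed by the rule, which brings any leaf/root ratio below 2 in control to under 0.5. OS08G0502700 went from a leaf/root ratio of 209 to 2.88 in Hacha and from 158 to 21.4 in Lachit, and so stayed leaf-expressed. OS01G0924966 went from 1.17 to 0.00914 in Hacha and from 1.91 to 0.00980 in Lachit.

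**Figure D3:**
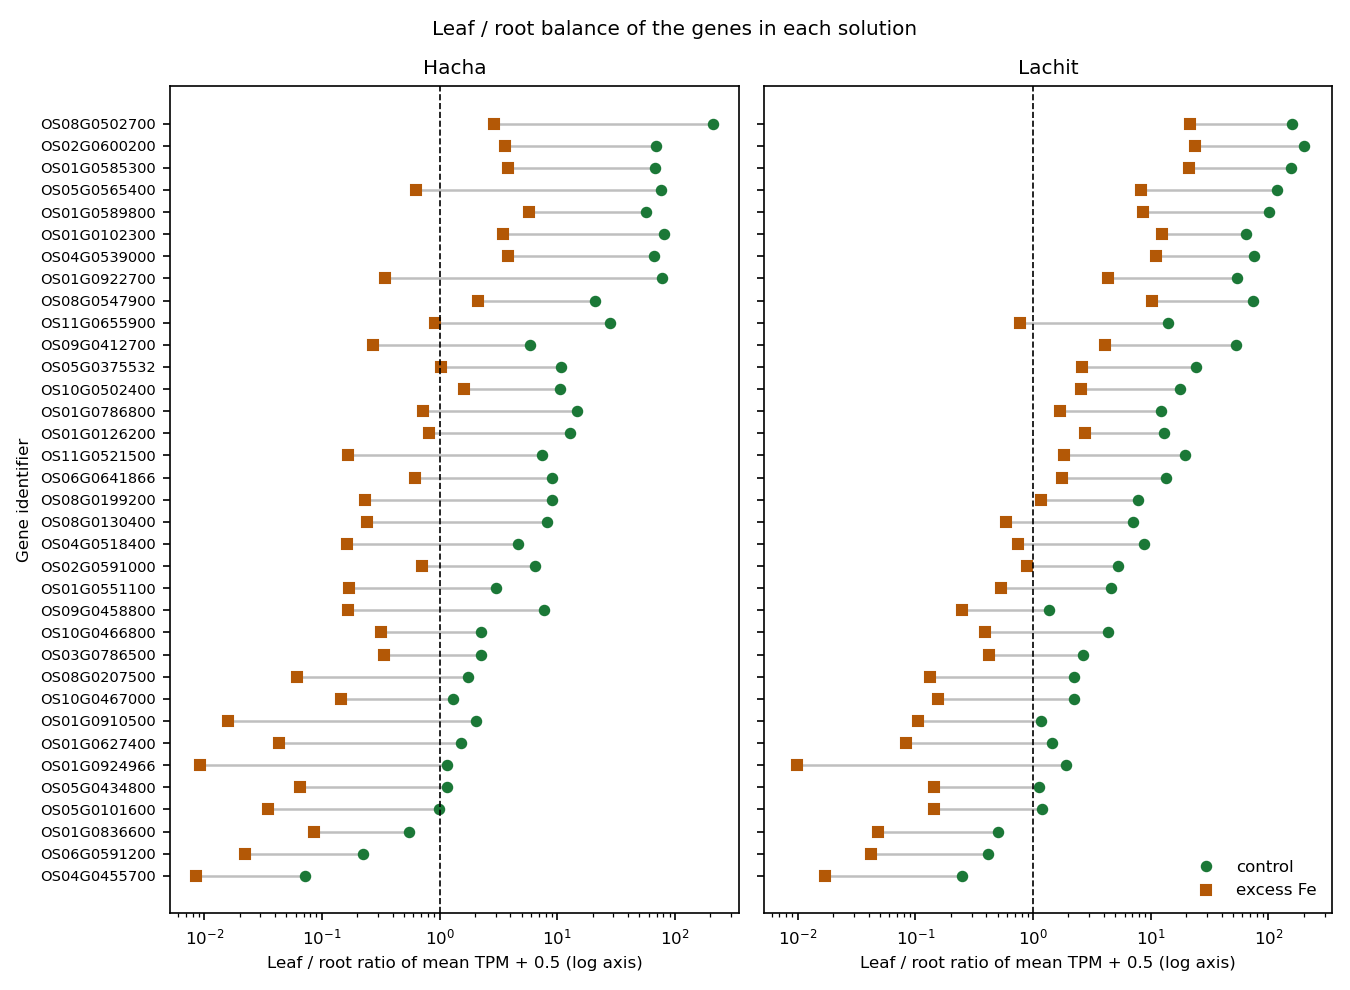
Leaf/root ratio of mean TPM + 0.5 (log axis) for each of the 35 genes in control solution (green circles) and under excess iron (brown squares), in Hacha (left) and Lachit (right); grey lines join the values of a gene and the dashed line marks equal levels. Excess-iron values lie to the left of control values for every gene, as the rule requires, and 9 genes in Hacha and 17 in Lachit stay to the right of the line.

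Genes typical of leaves were also followed in roots as a group, since leaf-expressed genes make up most of the 35. In control plants of both varieties, 1408 genes had at least 8 times more mRNA in leaf than in root, and 15 of them belong to the 35. Of the 1408, 916 had a leaf ratio of at most 0.5 in both varieties and 83 a root ratio of at least 2 in both. Of all 21086 genes, 1871 and 1902 did so. The same control values enter the choice of the 1408 genes and these ratios, so the counts are partly set by that choice. The median log2 root ratio of the 1408 genes was -0.06 in Hacha and -0.03 in Lachit. Their summed level in root libraries was nevertheless 6443 to 7708 TPM in Hacha control and 13210 to 15430 TPM in Hacha excess iron, and 5367 to 5978 TPM in Lachit control and 6690 to 7277 TPM in Lachit excess iron. The part of this shift in the root ratios of the 35 genes was not tested.

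Low counts limit the root values of some genes. In at least 1 control-root library, 18 of the 35 genes had under 50 counts and 7 had under 10. OS11G0655900, named after its values were seen, had 0 or 1 counts in each control-root library, 2 and 7 counts in excess-iron root of Hacha and 14, 11 and 8 counts in excess-iron root of Lachit. Its leaf levels were 7.04, 16.9 and 19.6 TPM in Hacha control, 0.00, 0.894 and 0.725 TPM in Hacha excess iron, 6.66, 8.67 and 6.91 TPM in Lachit control and 1.10, 0.451 and 0.367 TPM in Lachit excess iron. Its membership therefore turns on a handful of root reads.

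The comparison of the varieties was the one the rule did not use, although the same libraries enter both. Under excess iron it is not free of the rule. It also holds any difference between the varieties in the ratios that chose the genes. Lachit was compared with Hacha within each organ and solution with edgeR's quasi-likelihood test on estimated counts, adjusted by the Benjamini-Hochberg method over all genes tested, 27479 in root and 25505 in leaf, and called at an adjusted p below 0.05. All 35 genes passed the filter on low counts in both organs. Sequence differences between either variety and the reference could alter the matching of reads, and their part in these differences was not tested.

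In control root, Lachit had 9 of the 35 genes lower, where 15.2% of all genes tested were lower, and 2 higher, where 14.5% were higher. Under excess iron, 15 of the 35 were lower in Lachit root, against 20.1% of all genes, and 0 were higher, against 26.6%. The root comparisons share no libraries but came from the same fit, and the rule used the values of both, so they are not independent. By the same edgeR test, 8 genes were lower in both: OS02G0600200, OS05G0565400, OS06G0591200, OS06G0641866, OS08G0130400, OS08G0547900, OS09G0412700 and OS11G0521500. These are 22.9% of the 35 genes, 8 of the 9 lower in control root and 8 of the 15 lower under excess iron. Of all genes tested, 8.54% were lower in both, which is 56.3% of those lower in control root and 42.4% of those lower under excess iron. The median log2 ratio of Lachit to Hacha over the 35 genes was -0.36 in control root and -0.54 in excess-iron root, with 27 of 35 below 0 each time, where the medians of all genes tested were 0.01 and 0.08. With DESeq2, 10 were lower and 2 higher in control root, and 15 were lower and 0 higher in excess-iron root. At an unadjusted p below 0.05 edgeR also had 0 genes higher in excess-iron root of Lachit, whereas with only the groups compared in the fit 1 was higher and 18 were lower. Fitted with all 8 groups at once, control root had 6 lower and 1 higher.

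In control leaf, Lachit had 4 of the 35 genes higher, against 10.4% of all genes tested, and 2 lower, against 8.65%. In excess-iron leaf 14 were higher, against 22.5%, and 2 were lower, against 20.1%. The median log2 ratio over the 35 genes was -0.25 in control leaf and 0.57 in excess-iron leaf, with 25 of 35 above 0 in the latter, where the medians of all genes tested were -0.04 and 0.06. Among the excess-iron leaf libraries of Lachit, replicate 3 was the highest for 29 of the 35 genes and replicate 2 the lowest for 27. The count in excess-iron leaf depended on several libraries: it was 9 higher and 1 lower without replicate 3 of Lachit, 20 higher and 1 lower without replicate 2 of Lachit, and 9 higher and 6 lower without replicate 3 of Hacha. With only the groups compared in the fit, 4 were higher and 0 lower. In control leaf the balance between higher and lower genes was not stable. It was 2 and 1 without replicate 2 of Lachit, 2 and 3 without replicate 1 of Hacha, 5 and 6 with only the groups compared in the fit, 4 and 5 with all 8 groups in 1 fit, and 4 and 4 with DESeq2. Scaled by library totals alone, the median log2 ratio in excess-iron leaf was 1.02 for the 35 genes and 0.46 for all genes tested.

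The calls came from all 3 kinds of genes. Of the 24 leaf-expressed genes, 8 were lower and 1 was higher in Lachit in control root, and 11 were lower in excess-iron root. In control leaf 3 of them were higher and 1 was lower, and in excess-iron leaf 11 were higher. Of the 2 genes with more mRNA in control root, OS06G0591200 was lower in control and excess-iron root. OS04G0455700 was higher in control root and in both leaf comparisons. Of the 9 genes of the middle kind, 3 were lower in Lachit in excess-iron root and 1 was lower in control leaf. In excess-iron leaf, 2 of these 9 were higher in Lachit and 2 were lower. Of all genes tested, 15.2% were lower and 14.5% higher in control root, and 20.1% were lower in excess-iron root. In control leaf 10.4% were higher and 8.65% lower, and in excess-iron leaf 22.5% were higher and 20.1% lower. Those genes are not matched to the kinds, so nothing is read from these counts. By the edgeR test, 5 genes were both lower in root and higher in leaf of Lachit under excess iron, out of 15 and 14: OS01G0922700, OS05G0565400, OS08G0502700, OS08G0547900 and OS09G0412700. They are 14.3% of the 35, where the same held for 1.97% of the 24056 genes with a test in root and leaf. The leaf ratio was the lower one in Hacha for 91.5% of the 1871 genes low in leaves of both varieties. All genes tested are not matched to the 35 in this, so nothing is read from the shares. The difference of these shares was not tested. Over the 4 comparisons, 8 genes (22.9%) were called in none, 13 (37.1%) in 1, 8 (22.9%) in 2, 5 (14.3%) in 3 and 1 (2.86%) in all 4. Of the 24056 genes, the shares were 26.1%, 32.8%, 24.1%, 10.4% and 6.67%.

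The gene called in all 4 comparisons was OS08G0547900, named after its values were seen. In roots it had 1.36, 1.19 and 1.58 TPM in Hacha control, 3.73 and 3.20 TPM in Hacha excess iron, 0.585, 0.509 and 0.515 TPM in Lachit control and 2.01, 1.66 and 2.48 TPM in Lachit excess iron. In leaves it had 35.9, 42.1 and 39.3 TPM in Hacha control, 5.01, 8.29 and 10.2 TPM in Hacha excess iron, 75.9, 76.7 and 74.0 TPM in Lachit control and 24.8, 22.1 and 30.2 TPM in Lachit excess iron. The varieties did not overlap in any of the 4 pairs of groups. The log2 ratio of Lachit to Hacha was -1.21 (SE 0.24) in control root, -0.82 (SE 0.23) in excess-iron root, 0.95 (SE 0.18) in control leaf and 1.35 (SE 0.19) in excess-iron leaf. The edgeR quasi-likelihood test gave adjusted p of 0.00294, 0.0129, 0.00396 and 0.000385. The call in excess-iron root was lost without replicate 1 of Hacha, at an adjusted p of 0.0799 by edgeR.

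Considering genes that reached 10 CPM or more in 1 of the varieties, OS09G0412700 had the largest difference in control root. It stood at 1.48 ± 0.161 CPM in Lachit and 12.2 ± 0.238 CPM in Hacha (SD, n = 3 each), a log2 ratio of -3.04 (SE 0.28) with an adjusted p of 1.4e-05 by edgeR's quasi-likelihood test. In the other direction, OS04G0455700 stood at 22.9 ± 2.70 CPM in Lachit and 12.9 ± 3.15 CPM in Hacha control root (SD, n = 3 each), a log2 ratio of 0.82 (SE 0.17) with an adjusted p of 0.00412 by the same edgeR test. In control leaf the same gene was 6.85 times higher in Lachit, at 6.00 ± 1.36 against 0.867 ± 0.242 CPM (SD, n = 3 each), with an edgeR adjusted p of 0.000387.

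In excess-iron root the largest difference at this level belonged to OS11G0521500. Roots held 24.8, 21.9 and 18.8 TPM in Hacha control, 65.6 and 112 TPM in Hacha excess iron, 4.65, 3.98 and 6.44 TPM in Lachit control and 15.4, 14.1 and 13.3 TPM in Lachit excess iron. All Lachit root libraries were below all Hacha root libraries. Under excess iron the log2 ratio was -2.72 (SE 0.25) with an adjusted p of 1.3e-05 by edgeR's quasi-likelihood test. In leaves it had 133, 183 and 177 TPM in Hacha control, 15.5, 15.7 and 12.0 TPM in Hacha excess iron, 102, 113 and 107 TPM in Lachit control and 28.2, 19.1 and 32.4 TPM in Lachit excess iron, and neither leaf comparison of the varieties was called. Of the genes described above, OS01G0910500 was at 106 ± 66.6 CPM in Lachit (SD, n = 3) and 650 ± 8.95 CPM in Hacha (SD, n = 2) in excess-iron root, a log2 ratio of -2.61 (SE 0.50) with an edgeR adjusted p of 0.00169. OS06G0591200 was lower in Lachit root by log2 ratios of -1.34 (SE 0.21) in control and -1.65 (SE 0.23) under excess iron, with edgeR adjusted p of 0.000665 and 0.000213.

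In control leaf, OS08G0130400 was the most reduced in Lachit among genes that reached 10 CPM in either variety, at 15.8 ± 1.89 CPM against 61.8 ± 18.8 CPM in Hacha (SD, n = 3 each), a log2 ratio of -1.97 (SE 0.36) with an edgeR adjusted p of 0.00291. OS05G0375532 was the most raised at that level, with 15.0, 24.7 and 28.3 TPM in Lachit and 7.12, 10.7 and 8.79 TPM in Hacha control leaf. Its log2 ratio was 1.36 (SE 0.38) and its edgeR adjusted p 0.0271, over a range of 0.00495 to 0.112 among the alternatives. The call was lost without replicate 1 or 3 of Hacha, at adjusted p of 0.0888 and 0.0893 by edgeR, or without replicate 2 or 3 of Lachit, at 0.0929 and 0.112, and at 0.0546 without both leaf libraries that stood apart, replicate 1 of Hacha control leaf and replicate 3 of Lachit excess-iron leaf. In the other groups it had 0.803, 2.18 and 1.81 TPM in Hacha excess-iron leaf, 4.31, 2.93 and 7.93 TPM in Lachit excess-iron leaf and at most 2.01 TPM in roots.

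In excess-iron leaf the largest difference at 10 CPM or more belonged to OS05G0565400, whose libraries are given above. It stood at 52.8 ± 17.0 CPM in Lachit and 8.73 ± 7.82 CPM in Hacha (SD, n = 3 each), a log2 ratio of 2.59 (SE 0.61) with an adjusted p of 0.00715 by edgeR's quasi-likelihood test. The log2 ratio was 2.16 without replicate 1 of Hacha, 3.59 without replicate 2 of Hacha and 2.35 without replicate 3 of Lachit. With only the groups compared in the fit, the edgeR adjusted p was 0.0464. None of the 35 genes with at least 10 CPM was lower in Lachit in excess-iron leaf or higher in Lachit in excess-iron root by this test.

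Below that level, OS09G0458800, named after its values were seen, had the largest differences between varieties in 3 of the comparisons. It had 58.6 and 50.4 TPM in Hacha excess-iron root against 7.26, 8.70 and 0.833 TPM in Lachit, and 17.5, 43.6 and 31.1 TPM in Hacha control leaf against 1.91, 2.97 and 4.34 TPM in Lachit. Its excess-iron leaf held 1.25, 11.8 and 13.1 TPM in Hacha and 1.51, 0.00 and 1.56 TPM in Lachit, and overlapped there. The log2 ratios of Lachit to Hacha were -3.33 (SE 0.63), -3.30 (SE 0.77) and -3.32 (SE 0.87), with adjusted p of 0.00163, 0.0121 and 0.0117 by edgeR. In control leaf the call was lost without replicate 2 of Hacha, at an edgeR adjusted p of 0.0518, or without replicate 1 or 2 of Lachit, at 0.0626 and 0.0540. In excess-iron leaf limma on log2(TPM + 1) gave a log2 ratio of -1.99. Replicate 3 of excess-iron root of Lachit, at 0.833 TPM, lay below all 3 Lachit control-root libraries, at 3.39, 1.48 and 1.43 TPM.

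**Figure D4:**
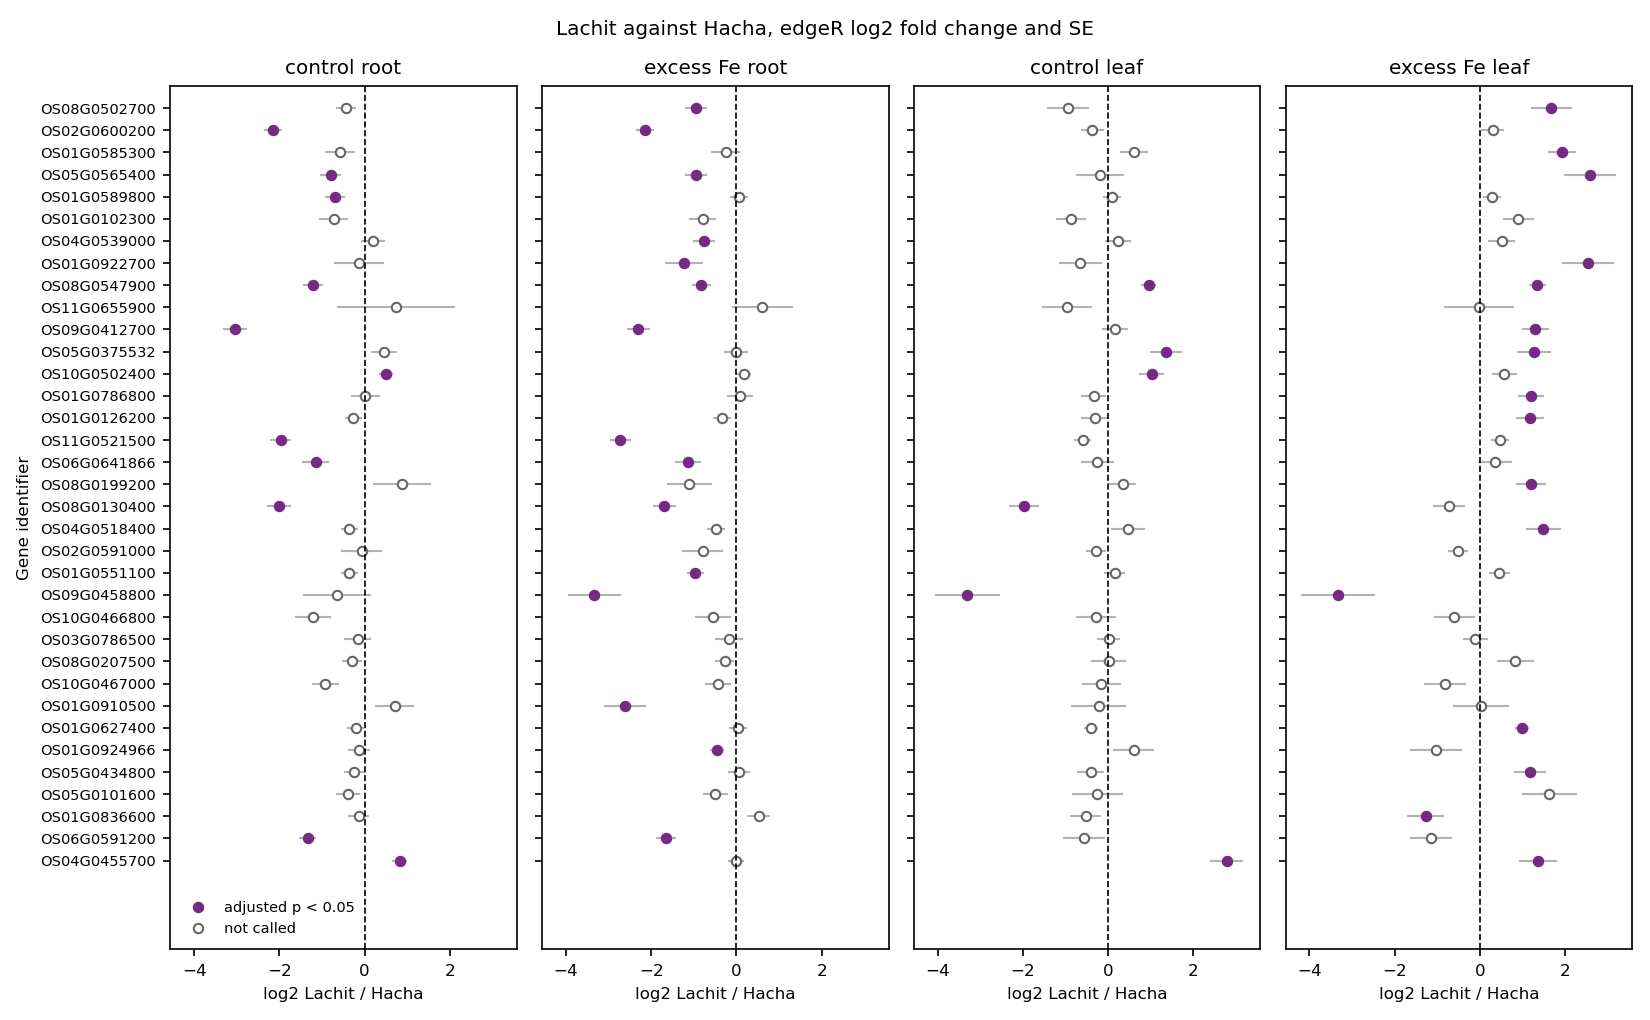
Log2 ratio of Lachit to Hacha (horizontal axis) with its SE for each of the 35 genes in control root, excess-iron root, control leaf and excess-iron leaf, from edgeR; filled points have an adjusted p below 0.05 and the dashed line marks no difference. Filled points lie mostly left of the line in the root panels (9 of 11 and 15 of 15) and mostly right of it in excess-iron leaf (14 of 16).

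Over all 35 genes, the summed level in root was 1491 to 1803 TPM per library in Hacha control and 4322 to 5217 TPM in Hacha excess iron, and 522 to 913 TPM in Lachit control and 1516 to 2108 TPM in Lachit excess iron. In leaf it was 6134 to 7119 TPM in Hacha control and 596 to 894 TPM in Hacha excess iron, and 4848 to 5524 TPM in Lachit control and 947 to 2732 TPM in Lachit excess iron. OS06G0591200 alone held 58.8% to 85.5% of the root sums, and OS08G0502700 held 29.0% to 51.3% of the control leaf sums, so the root sums mainly describe 1 gene.

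By the chromosome that the identifiers carry, 11 of the 35 genes (31.4%) belong to chromosome 1, which holds 14.6% of the 21086 genes. Chromosome 8 has 5 genes, chromosome 5 has 4, and chromosomes 7 and 12 have 0. These shares are given as a description.

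Most of the genes had 1 transcript in the files. Only OS02G0591000, OS02G0600200, OS08G0502700 and OS10G0502400 had 2 or more (11.4% of the 35, against 22.2% of the 21086 genes). The most abundant transcript differed between groups for OS10G0502400, where transcript 02 led by mean in excess-iron leaf of both varieties and transcript 01 in the other groups. In Hacha leaf, transcript 02 held 30.1%, 25.1% and 31.8% of the gene's TPM in control and 77.0%, 48.9% and 66.0% under excess iron. In Lachit leaf it held 43.0%, 39.1% and 35.8% in control and 75.0%, 57.9% and 41.5% under excess iron. The libraries of the solutions were separate in Hacha leaf and overlapped in Lachit leaf. In roots the share of transcript 02 was also higher under excess iron, with no overlap in either variety. It was 43.5%, 30.9% and 23.0% in Hacha control root and 48.2% and 48.5% under excess iron. In Lachit root it was 28.6%, 39.2% and 39.5% in control and 54.9%, 47.8% and 42.2% under excess iron. These shares are kallisto's estimates for transcripts that may share most of their sequence. The gene's summed level was 139, 204 and 181 TPM in Hacha control leaf, 86.1, 66.6 and 70.2 TPM in Hacha excess-iron leaf, 292, 433 and 404 TPM in Lachit control leaf and 125, 104 and 186 TPM in Lachit excess-iron leaf.

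The thresholds divided genes with nearly the same values. Just inside were OS10G0466800, whose smallest log2 ratio was 1.02 in size, and OS01G0126200, at 1.07. Just outside were OS05G0406100, at 0.99, and OS12G0221600, at 0.98. OS01G0126200 had 35.9, 40.5 and 35.6 TPM in Hacha control leaf, 4.33, 5.52 and 3.77 TPM in Hacha excess-iron leaf, 32.0, 29.0 and 29.3 TPM in Lachit control leaf and 10.4, 6.66 and 24.9 TPM in Lachit excess-iron leaf. Replicate 3 of Lachit excess-iron leaf lay near the control libraries and raised the Lachit leaf ratio, 0.473, towards the threshold. The gene still met the rule without that replicate. It no longer did without replicate 1 or 2 of that group, or without replicate 3 of Hacha control root. Its smallest log2 ratio in size, 1.07, was that of Hacha root.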

How the data were processed

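Files list transcripts, 1 file for each library. Per the submitters' processing notes, the authors' estimated counts and TPM values involved kallisto, bcl2fastq and the build IRGSP-1.0, with version and settings not given. The deposited estimated counts are not normalized, and the deposited TPM values are scaled per library and transcript length. The series' own TPM matrix was left aside.

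Identifiers joined 42346 transcripts into 35679 genes, and summed estimated counts were rounded. Replicates were numbered within groups, and no pairing was assumed. All were kept. The chi-square per gene between replicates was 8.1 to 298, with the highest value between replicates 2 and 3 of excess-iron leaf of Lachit. A RefSeq gene table of the assembly ASM3414082v1 matched 1 identifier of the files and 0 of the 35 genes.

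Varieties were compared with edgeR 4.0.16 (R 4.3.3; robust quasi-likelihood F test, filterByExpr, TMM, fitted per organ over 4 groups), with Benjamini-Hochberg adjustment over all genes. SE is the log2 ratio divided by the square root of F. The procedure was tested on simulated root libraries only, with the same scatter setting for every gene and changes only in genes above a minimum count. The test did not cover leaf libraries or changes in genes with few counts. Alternatives included DESeq2 1.42.0 and limma 3.58.1 on log2(TPM + 1). The genes, lists and tests were chosen with earlier results of these data known. Genes were named by a rule: the 5 with the highest group mean, the 5 with the largest smallest ratio, the largest difference in each direction per variety comparison with at least 10 CPM, the 2 nearest each side of the thresholds, neighbours, and those whose leading transcript differed; exceptions are marked.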

Additional observations from a re-analysis of the deposited data

How the results depend on the processing

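The number of genes meeting the rule, 35, was sensitive to its settings. It was 53 with a pseudocount of 0.1, 71 on TMM-scaled CPM (31 shared with the 35), 154 with a fold threshold of 1.5 and 0 with a fold threshold of 3. Leaving out each library in turn gave 28 (without replicate 2 of excess-iron leaf of Lachit) to 47 (without replicate 3), and 15 of the 35 genes were kept whichever library was left out. Without both leaf libraries that stood apart (replicate 1 of control leaf of Hacha and replicate 3 of excess-iron leaf of Lachit), an alternative chosen after seeing the data, 46 genes met the rule, 34 of them shared. The 4 genes lost on the TMM scale were OS01G0922700, OS08G0199200, OS09G0458800 and OS11G0655900.

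Of the comparisons of varieties, the 11 calls in control root became 7 with all 8 groups in 1 fit and 7 with a log2 fold change of at least 1, and 8 to 11 when 1 library was left out. The 15 calls in excess-iron root became 9 with that minimum change and 10 to 13 when 1 library was left out. The 6 calls in control leaf became 11 when only the groups compared were fitted, and 3 (without replicate 2 of Lachit) to 5 when 1 library was left out. The 16 calls in excess-iron leaf became 4 when only the groups compared were fitted, 10 (without replicate 3 of Lachit) to 21 when 1 library was left out, and 11 without both libraries that stood apart. The causes were not tested. Total counts under the other alternatives stayed within 1.5 times, but their split into higher and lower did not always, as given with the leaf comparisons. Each difference between varieties printed with its adjusted p kept its direction under the alternatives that gave a value. With replicates of 2 or 3 per group and few root counts in some genes, small differences could go undetected. No paired analysis was possible because numbers in the titles run on over all libraries and pair no samples.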
